A study of Mus musculus with 8 samples.

Results

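The knockdown of Smc1, a core subunit of cohesin, was set against a control hairpin in mouse embryonic stem cells. The comparison held 4 of the 8 arrays of the series, chosen by title: 2 arrays of SMC1 hairpin 1 and 2 arrays of GFP hairpin 1. Lentivirus brought the hairpin into V6.5 cells in the presence of 8 µg/ml polybrene, and infected cells were selected for 4 days in 4 µg/ml puromycin. On day 5 RNA was taken, and 100 ng of it was labelled from the 3' end and hybridised to 1-colour Affymetrix arrays. All groups went through this infection and selection, so the controls carry virus and drug as well. The series' design text calls arrays of a pair biological replicates. Smc1 and GFP had 1 hairpin each, so an effect of either hairpin on other genes cannot be told apart from the loss of its target. The other 4 arrays, 2 with CapH2 hairpins 3 and 4 and 2 with Smc2 hairpins 1 and 2, hold knockdowns of condensin, another ring complex. They entered the fit, where they share the estimate of spread, and serve below as a comparison from which the GFP arrays are absent.

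Cohesin is a ring of Smc1, Smc3, Rad21 and a Stag subunit that encircles DNA. It is loaded by Nipbl and Mau2, released by Wapl with the Pds5 proteins, and made cohesive in S phase by the acetyltransferases Esco1 and Esco2, and it holds sister chromatids together until separase cuts it. It also extrudes loops of chromatin that stop at sites bound by Ctcf, and in embryonic stem cells it lies at enhancers and promoters of the genes that keep the cells pluripotent. Condensin uses related Smc proteins to compact chromosomes.

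The values were linear intensities, 1 for each probe set and array, analysed as log2(value + 16). Array medians ran from 62.5 to 74.5. A gene was represented by its brightest probe set and called at a limma adjusted p (Benjamini-Hochberg over all 12394 genes tested) below 0.05. Levels of different genes come from different probes and are not compared. Genes whose mean lay above 74.5, the highest array median, in both groups are favoured here, because no detection calls were used and the fold of a dimmer gene is not firm. Over all genes tested 1734 were called, 14.0%. Of the 10751 bright genes 1458 were called, 13.6%, with 934 higher (8.69%) and 524 lower (4.87%) in the Smc1 knockdown. Their median log2 changes were 1.15 and -1.0. The 2 Smc1 arrays did not overlap the 2 GFP arrays in any of the 1458. These genes were called from the same arrays, so the lack of overlap adds no support. Among them 594 rose and 262 fell by at least 1 on the log2 scale, 95 and 28 by at least 2, and 13 and 3 by at least 3. Centring each array on the median of the genes tested, an alternative chosen after seeing the data, moved the median change of all genes from 0.03 to -0.10. It gave 907 higher and 1035 lower genes (46.7% higher) where the values as deposited gave 1153 and 581 (66.5%). The balance of higher and lower calls is thus not firm, nor is the direction of changes near 0. The smallest change called with the values as deposited was 0.41 in size, larger than this move of the median.

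Single arrays mattered for the number of calls. When each Smc1 and GFP array was left out in turn, 123 genes were called in all 4 fits, and 100 of these were bright in both groups, 71 higher and 29 lower. A gene called in all 4 fits is called stable below, which speaks of its call and not of its size. Each of these fits leaves 1 array in a group, so a call can be lost for lack of precision while the size hardly moves. Where a list's calls in these fits are given in a row, their order is Smc1 1, Smc1 2, GFP 1, GFP 2, by the array left out. Smc1 replicate 1 lay farther from the GFP mean than Smc1 replicate 2 in 1099 of the 1458 genes (75.4%). The median change of the higher genes was 1.25 on Smc1 replicate 1 and 1.05 on Smc1 replicate 2, and that of the lower genes was -1.15 and -0.86. The Actb 3' to 5' ratio, which depends on RNA integrity and labelling, read 1.70 and 1.84 with the Smc1 hairpin but 2.18 and 2.04 with the GFP hairpin, so it moved with the groups. The Gapdh ratio read 0.833 and 0.862 with the Smc1 hairpin and 0.864 and 0.857 with the GFP hairpin, which overlap. With the Actb ratio as a covariate 588 genes were called in place of 1734.

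The targeted gene was reduced. Intensities of Smc1a were 535 and 454 after knockdown and 4165 and 3662 with the GFP hairpin. The groups lay far apart, with a log2 change of -2.95 (SE 0.16, n = 2 per group, limma adjusted p = 7.81e-05), and 12.6% of the GFP mean was left. Of the 8 core cohesin genes tested, 2 were called higher and 1, Smc1a, lower, beside 9.30% higher and 4.69% lower over all genes tested. Smc3, the partner of Smc1 in the ring, measured 3074 and 3268 against 4525 and 3884 in GFP (-0.40, adjusted p = 0.113) and was not called. Rad21, which closes the ring, was at 12379 and 13285 against 14325 and 14429 (-0.16, adjusted p = 0.400), and Stag2 also showed no call (0.20, adjusted p = 0.558). Stag1, the other mitotic Stag subunit, was higher, at 3217 and 2711 against 1872 and 1484 (0.82, SE 0.20, adjusted p = 0.0235), and its 5 other probe sets differed in the same direction. The meiotic subunit Rec8 measured 576 and 656 against 271 and 199 and rose by 1.35 (SE 0.24, adjusted p = 0.00776). The calls of both depended on single arrays: Stag1 was not called without any 1 of the 4 arrays (adjusted p = 0.0510 to 0.184), nor Rec8 without Smc1 replicate 1 (adjusted p = 0.0632) or GFP replicate 2 (0.0601). Neither meiotic Stag3 (-1.18, adjusted p = 0.123) nor Smc1b (-1.57, 0.270) was called. Smc1b measured 113 and 495 on the Smc1 arrays and 849 and 660.3 on the GFP arrays, which do not overlap, but the Smc1 arrays lie far from each other.

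Of 17 genes that load, release or establish cohesin or guard it in mitosis, 4 were called lower and 0 higher in limma (5 lower and 0 higher at an unadjusted p below 0.05). Esco2, which acetylates Smc3 in S phase, measured 1550.3 and 2059.8 in the Smc1 knockdown and 4794 and 4761 in GFP (-1.41, SE 0.24, adjusted p = 0.00731). The shugoshin genes, whose products protect centromeric cohesin, were lower as well. Sgo2a was at 2216 and 2459 against 5667 and 5131 (-1.20, adjusted p = 0.0265) and Sgo1 at 1538 and 1448 against 2386 and 2378 (-0.67, adjusted p = 0.0266). Wapl, the release factor, was at 3209.8 and 3979 against 5242 and 5524 (-0.59, adjusted p = 0.0462). Averaged over its probe sets, Wapl changed by -0.22 without a call (limma adjusted p = 0.494). These 4 falls were not stable. Esco2 was not called without Smc1 replicate 1 (adjusted p = 0.0832), GFP replicate 1 (0.0697) or GFP replicate 2 (0.0503), Sgo2a without any 1 of the 4 arrays (adjusted p = 0.0744 to 0.169), Sgo1 without any 1 of the 4 arrays (adjusted p = 0.105 to 0.151), or Wapl without any 1 of the 4 arrays (adjusted p = 0.0593 to 0.299). The loaders Nipbl (0.17, adjusted p = 0.650) and Mau2 (-0.19, adjusted p = 0.600), Pds5a (-0.22), Pds5b (0.15) and the loop anchor Ctcf (-0.31, adjusted p = 0.245) were not called.

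The largest rises among bright genes were spread over several functions. Sema3e, a secreted guidance molecule, measured 4919 and 2678 on the Smc1 arrays and 271 and 292 on the GFP arrays. This rise of 3.62 (SE 0.37, adjusted p = 0.00221) was the largest of the bright genes and stable, and 2 other bright probe sets of Sema3e gave 3.63 and 3.80. Slc40a1, the cellular iron exporter ferroportin, measured 1418 and 858 against 83.6 and 121 (3.26, SE 0.37, adjusted p = 0.00235). Lrp2, the endocytic receptor megalin, was at 1596 and 1085 against 102 and 152 (3.24, adjusted p = 0.00310). In all of these the lower Smc1 array was several times the higher GFP array. Tmcc3, a membrane protein of the endoplasmic reticulum, rose by 3.19, the small heat shock protein gene Cryab by 3.02, the immunoglobulin-family receptor gene Prtg by 2.96, and Rragd, a Rag GTPase that signals amino acids to mTORC1, by 2.96. Cryab measured 7570.0 and 8846 against 801 and 1241, Prtg 4426 and 2586 against 326 and 542 and Rragd 3880.1 and 2853 against 367 and 468. The calls of these 4 were stable too (adjusted p = 0.00221, 0.00257, 0.00241 and 0.00235). Averaged over a gene's probe sets, an alternative to the brightest one, the rises were smaller, at 1.85 for Tmcc3, 1.96 for Cryab and 1.41 for Rragd. Lrp2 rose by 2.13 with the Actb ratio as a covariate. Less firm was Fgfbp1, a secreted carrier of fibroblast growth factors, at 3343 and 1387 against 163 and 197 (3.48, adjusted p = 0.0111), which was not called without Smc1 replicate 1 (adjusted p = 0.116), GFP replicate 1 (0.103) or GFP replicate 2 (0.0640). The remaining genes of the 15 largest rises were Gbp2, Cxcl10, Acta1, Myl9, Lats2, Actc1 and Usp17la. All but the last are described with their groups below. Usp17la, a deubiquitinase gene, was at 3257 and 1328 against 392 and 132 (3.09, adjusted p = 0.0110) and was not called without Smc1 replicate 1 (adjusted p = 0.115) or GFP replicate 2 (0.0861).

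**Figure D1:**
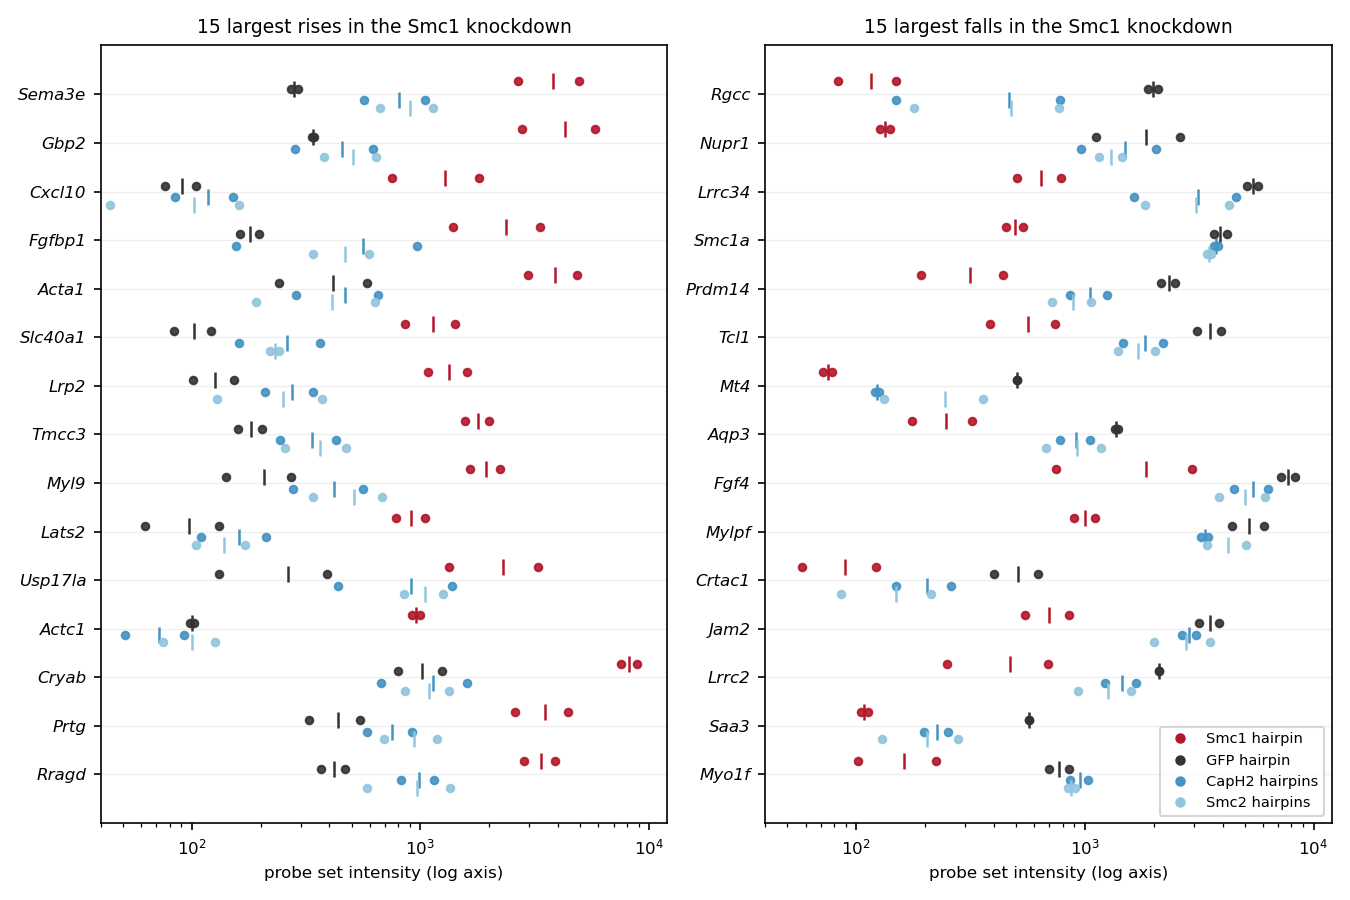
Intensity of each array (points, log axis) and group mean (ticks) for the 15 largest rises and the 15 largest falls among called genes bright in both groups, with 2 arrays each for the Smc1, GFP, CapH2 and Smc2 hairpins. The Smc1 points lie apart from the GFP points in all 30 genes, since being apart was part of the choice, while the condensin arrays often lie between the Smc1 and GFP arrays and for Smc1a, Actc1 and Cryab lie near the GFP arrays.

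Among the largest falls were those of Prdm14 and Tcl1. Prdm14, a repressor of differentiation needed in naive and germ cells, measured 193 and 439 on the Smc1 arrays and 2159 and 2487 on the GFP arrays (-2.92, SE 0.35, adjusted p = 0.00241). Tcl1, a coactivator of the kinase Akt, was at 386 and 741 against 3104 and 3931 (-2.67, SE 0.32, adjusted p = 0.00235). Nupr1, a small nuclear stress protein gene, was at 140.4 and 126 against 2595 and 1122 (-3.53, adjusted p = 0.00235); its GFP arrays differ from each other by more than the Smc1 arrays do, yet stay far above them. The genes for the water and glycerol channel Aqp3 (174 and 321 against 1394 and 1350.2, -2.45), the junction molecule Jam2 (548 and 852 against 3865 and 3162, -2.33) and the fast muscle myosin light chain Mylpf (1110.1 and 892 against 6063 and 4418, -2.36) also fell, with adjusted p = 0.00310, 0.00241 and 0.00221. One of the 4 other Jam2 probe sets, at -0.03, did not share its fall. The acute-phase gene Saa3 (-2.23, adjusted p = 0.00367) and the motor protein gene Myo1f (-2.23, adjusted p = 0.00318) completed the stable falls of this group. Not stable were Rgcc, which measured 83.1 and 149 against 2097 and 1887 (-3.97) and was not called without Smc1 replicate 1 (adjusted p = 0.0886), GFP replicate 1 (0.0864) or GFP replicate 2 (0.0567), Lrrc34 (-3.07), not called without Smc1 replicate 1 (adjusted p = 0.0632) or GFP replicate 1 (0.0585), Mt4 (-2.52), not called without GFP replicate 1 (adjusted p = 0.0531), Crtac1 (-2.35), not called without Smc1 replicate 1 (adjusted p = 0.106), GFP replicate 1 (0.0620) or GFP replicate 2 (0.0826), and Lrrc2 (-2.29), not called without Smc1 replicate 1 (adjusted p = 0.0610), GFP replicate 1 (0.0772) or GFP replicate 2 (0.0567). Fgf4, an autocrine growth factor that primes stem cells to differentiate, is named with the growth factor genes below.

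Among the brightest genes past a 2-fold change, Gja1, which codes for the gap junction protein connexin 43, measured 18669 and 14558 on the Smc1 arrays and 3409.9 and 3497 on the GFP arrays (2.25, SE 0.23, adjusted p = 0.00221). Syce2, a component of the synaptonemal complex of meiosis, was the brightest stable fall, at 5864 and 5728 against 16506 and 12152 (-1.29, SE 0.18, adjusted p = 0.00318). The actin-binding caldesmon gene Cald1 (1.64), Lgals1, the gene of galectin-1 (1.32), and S100a10, the partner of annexin A2 (1.33), rose with all arrays in the fit. Cald1 was not called without Smc1 replicate 1 (adjusted p = 0.145), GFP replicate 1 (0.145) or GFP replicate 2 (0.0512), Lgals1 without Smc1 replicate 1 (adjusted p = 0.130) or GFP replicate 2 (0.0937), or S100a10 without Smc1 replicate 1 (adjusted p = 0.162) or GFP replicate 1 (0.140). The change of S100a10 was 0.86 without GFP replicate 1. Falls without the same stability were those of the snoRNA host gene Snhg6 (-1.18, not called without Smc1 replicate 1 (adjusted p = 0.0860) or GFP replicate 1 (0.0943)), the mitochondrial carrier gene Slc25a36 (-1.12, not called without Smc1 replicate 1 (adjusted p = 0.193), GFP replicate 1 (0.163) or GFP replicate 2 (0.0847)), and 2410006H16Rik (-1.32, not called without any 1 of the 4 arrays (adjusted p = 0.0689 to 0.293)).

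The 45 gene lists gave an overview by function. In 44 of them at least 1 gene was tested. The share called higher was above the 9.30% of all genes in 24 lists and the share called lower above 4.69% in 19. High by median log2 change were the interferon-induced GTPases (2.81), immunoproteasome and MHC class I genes (1.54), two-cell-like genes (1.32) and contractile genes (1.19), and low were the core and naive pluripotency genes (-0.70), beside 0.03 over all genes tested. A gene could be tested by being bright on the 2 Smc1 arrays alone, which bears on lists of dim genes. With no filter on dim genes these medians were 1.31 (15 GTPases), 1.31 (20 immunoproteasome and MHC genes), 1.32 and 1.19, so they have no firm order. Members were not tested as sets, and the lists were chosen with results of these data known. The counts of called members below are to be read beside 9.30% higher and 4.69% lower. Where a list's shares are near or below these, they show nothing particular to the list.

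**Figure D2:**
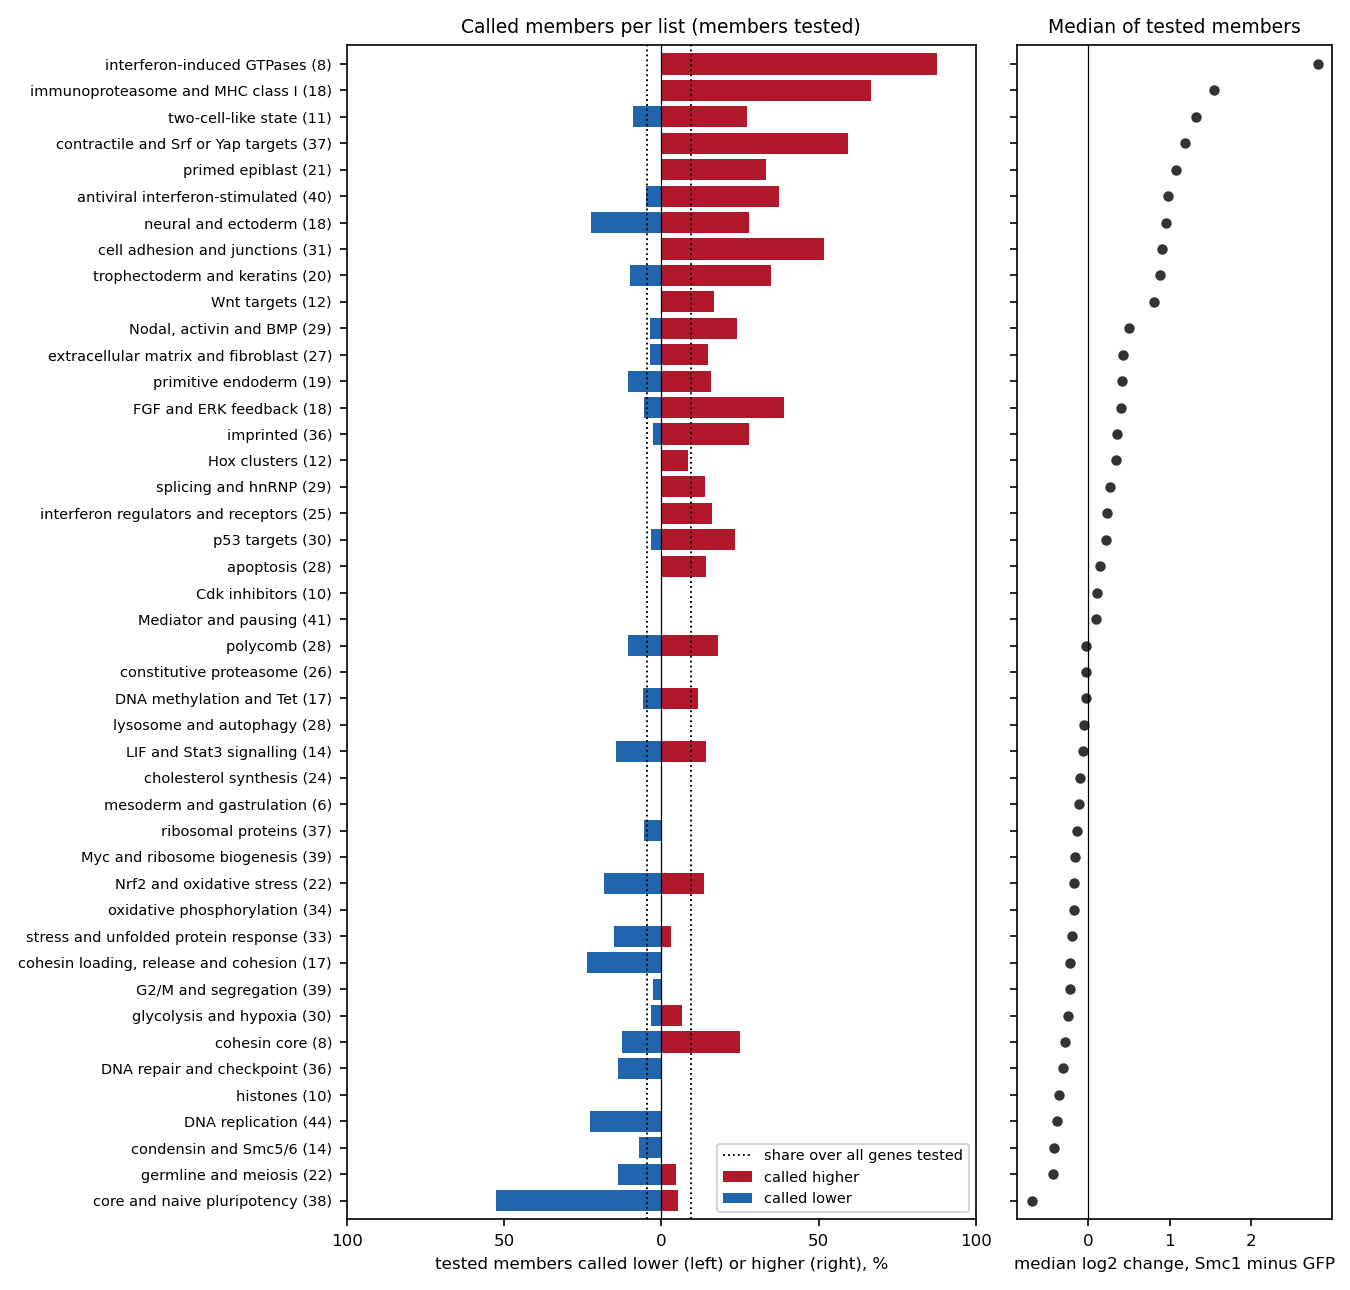
Share of tested members called higher (right) or lower (left) for each of 44 lists (number of members tested in brackets), with dotted lines at the shares over all genes tested, 9.30% higher and 4.69% lower, beside the median log2 change of the tested members. Interferon-induced GTPases, immunoproteasome genes, contractile genes and adhesion genes stand highest by share, and core and naive pluripotency genes have the longest bar to the left.

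Many of the tested interferon response genes were called higher in the Smc1 knockdown. Interferons act through receptors and Stat proteins, which switch on genes that hold interferon-stimulated response elements or gamma-activated sites in their promoters. Such genes code for large GTPases that attack vacuoles of pathogens, for the inducible proteasome subunits and the machinery that loads peptides on MHC class I, and for antiviral sensors and effectors. Of 8 interferon-induced GTPase genes tested, 7 were called higher and 0 lower in limma (7 and 0 at an unadjusted p below 0.05). The filter on dim genes, which a gene could pass through the Smc1 arrays alone, set the 8. Of 24 listed genes 15 were on the array, and with no filter 7 of these 15 were called, with a median of 1.31. Only 3 were bright in both groups, all of them called. The tested gene with no call was Iigp1 (0.03). Gbp2, a guanylate-binding protein gene, measured 5792 and 2783 on the Smc1 arrays and 336 and 342 on the GFP arrays (3.51, SE 0.42, adjusted p = 0.00235), and its other probe set gave 3.77. The 4 condensin arrays stayed low, at 623 and 283 with CapH2 and 379 and 639.8 with Smc2 hairpins. Igtp was at 566 and 802 against 295 and 233 (1.31, adjusted p = 0.0121) and Gbp2b at 1701 and 625 against 174 and 292 (2.12, adjusted p = 0.0281), without overlap of the groups. The other 4, Gbp7, Gbp3, Irgm1 and Irgm2, had a GFP mean below the highest array median, so the sizes of their rises are not firm. Gbp2, Gbp7 and Irgm1 were stable, and the count of 7 became 3 without Smc1 replicate 1, 6 without Smc1 replicate 2 and 5 without either GFP replicate. Igtp was not called without any 1 of the 4 arrays (adjusted p = 0.0567 to 0.0846), nor Gbp2b without Smc1 replicate 1 (adjusted p = 0.224), GFP replicate 1 (0.205) or GFP replicate 2 (0.0779). Without Smc1 replicate 1 the change of Gbp2b was 1.41.

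The promoters of these 7 genes are shown because all of them hold, in at least 1 promoter, an interferon-stimulated response element, searched as GAAA, any 2 bases (NN) and GAAA again, on both strands of the 250 bases before the RefSeq start site (overlapping matches counted; promoter sequences from RefSeq, build GRCm38.p6). The element was found in 936 of 27025 genes with a promoter in that table (3.46%) and in 297 of the 10025 tested genes that could be matched (2.96%). The list holds genes known as interferon-induced, so a share above all genes follows from its choice. Its uncalled members with a promoter numbered 0, so the list holds no comparison. Over the 3 lists of interferon response genes the element was in 10 of 28 called higher and 5 of 23 not called. Each window has 80 bases, 5′ to 3′ on the gene's strand, with matches on either strand in capitals. The windows lie at chr3:142620569-142620648 (Gbp2), chr3:142594675-142594754 (Gbp2b), chr3:142559964-142560043 (Gbp3) and chr3:142530248-142530327 (Gbp7), on the plus strand in 1 gene cluster, and at chr11:58199476-58199555 (Igtp, plus strand), chr11:48871421-48871500 (Irgm1, minus strand) and chr11:58214878-58214957 (Irgm2, plus strand). Cxcl10, at chr5:92349058-92349137 on the minus strand, is added from the antiviral list. The match nearest to the start site ended 50 bases before it in Gbp2, 30 in Gbp3, 44 in Gbp7, 25 in Igtp, 15 in Irgm1 and 55 in Irgm2, but 128 in Gbp2b and 204 in Cxcl10.
Gbp2: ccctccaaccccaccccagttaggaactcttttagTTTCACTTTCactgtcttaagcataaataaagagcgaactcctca
Gbp2b: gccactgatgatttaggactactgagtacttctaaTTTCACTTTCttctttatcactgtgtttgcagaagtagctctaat
Gbp3: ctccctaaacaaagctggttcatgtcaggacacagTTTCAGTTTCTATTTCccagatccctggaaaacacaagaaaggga
Gbp7: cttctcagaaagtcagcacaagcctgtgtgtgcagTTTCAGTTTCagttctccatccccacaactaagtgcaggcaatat
Igtp: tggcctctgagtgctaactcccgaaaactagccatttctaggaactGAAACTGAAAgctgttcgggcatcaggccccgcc
Irgm1: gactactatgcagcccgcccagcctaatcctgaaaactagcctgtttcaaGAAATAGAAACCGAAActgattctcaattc
Irgm2: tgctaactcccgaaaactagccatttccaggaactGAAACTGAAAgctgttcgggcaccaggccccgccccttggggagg
Cxcl10: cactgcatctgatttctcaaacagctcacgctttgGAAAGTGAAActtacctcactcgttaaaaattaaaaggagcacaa
Igtp and Irgm2 are neighbouring paralogs whose windows share a run of 29 bases, so they are not independent cases. No more than 13 bases in a row were shared by any other pair of the 7 windows.

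The immunoproteasome and antigen presentation genes were mostly higher. Of 18 tested, 12 were called higher and 0 lower in limma (13 and 0 at an unadjusted p below 0.05), with a median change of 1.54. H2-D1, a classical MHC class I heavy chain gene, measured 1856 and 1853 on the Smc1 arrays and 262 and 249.8 on the GFP arrays (2.78, SE 0.20, adjusted p = 0.000403). H2-K1, another, was at 3441 and 1899 against 591 and 420.2 (2.32, SE 0.28, adjusted p = 0.00241). MHC class I genes are near-identical paralogs whose probes can share signal, so these count as uncertain single values. Psmb10, an inducible catalytic subunit, was at 3921 and 2744 against 896 and 782 (1.95, adjusted p = 0.00310), and Tapbp, tapasin, which holds empty class I molecules at the peptide transporter, at 4457 and 2968 against 934 and 982 (1.91, adjusted p = 0.00310). These 4 calls were stable, though H2-D1 rose by 1.26 when averaged over its probe sets. Stable too were the dimmer Psmb8 (4.98) and Erap1 (2.97), named after their values were seen. Psmb9, also named afterwards, rose by 1.78 (adjusted p = 0.00506) but was not called without Smc1 replicate 1 (adjusted p = 0.0515). With no filter on dim genes 12 of 20 were called. The count of 12 was 6, 10, 7 and 10 in the 4 fits with an array left out. Of 26 constitutive proteasome genes tested 0 were called in limma (1 higher and 1 lower at an unadjusted p below 0.05), with a median of -0.02 and a range from -0.61 to 0.32. Psmb6 and Psmb7, the subunits that Psmb9 and Psmb10 replace, measured 10114 and 9436 against 10745 and 9047 (-0.01, adjusted p = 0.956) and 2247 and 3033 against 3819 and 4184 (-0.61, adjusted p = 0.0832). None of the 10 called genes of the immunoproteasome list with a promoter held the response element in these 250 bases.

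**Figure D3:**
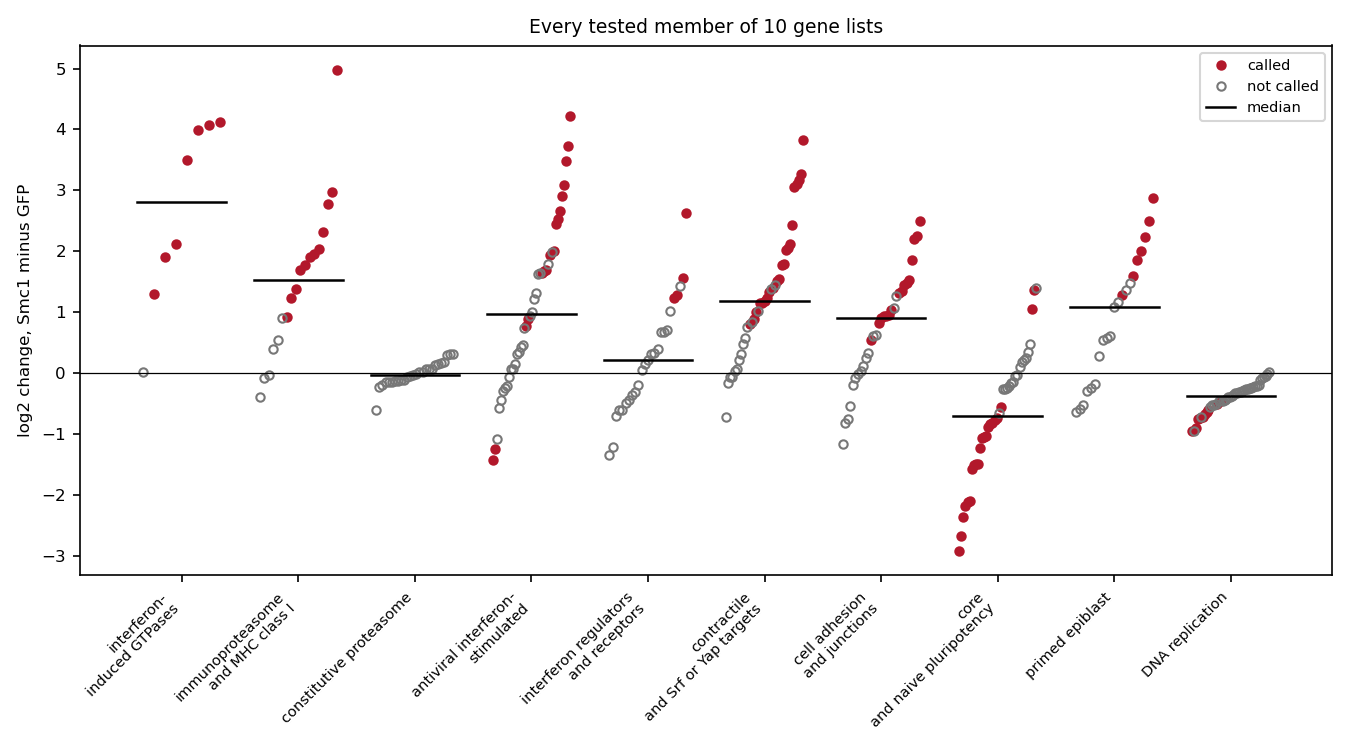
Log2 change, Smc1 minus GFP, of every tested member of 10 gene lists (points, ordered by size within a list; filled when called; bars at the median). The GTPase and immunoproteasome lists lie mostly above 0 and the constitutive proteasome genes lie between -0.61 and 0.32, while pluripotency genes reach from -2.92 to 1.40.

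Antiviral interferon-stimulated genes moved less uniformly. Of 40 tested, 15 were called higher and 2 lower, with a median of 0.97. Ifi35, an adaptor of innate signalling, measured 2996 and 2701 against 493 and 521 in GFP (2.45, SE 0.29, adjusted p = 0.00235), and the mono-ADP-ribosyltransferase gene Parp14 383 and 422 against 75.2 and 104 (2.00, SE 0.27, adjusted p = 0.00310). Both were stable, with the dimmer Ifit2, Oasl2 and Zbp1, but Parp14 rose by 1.12 when averaged over its probe sets. With no filter on dim genes 16 of 52 were higher and 2 lower, with a median of 0.74, and the 21 genes above the median on all arrays had 7 higher and 2 lower, with a median of 0.31. Parp9, which works with Dtx3l, was at 1247 and 910.5 against 267 and 267 (1.94, adjusted p = 0.00337) and missed the limit in 1 of the 4 leave-outs, without Smc1 replicate 1 (adjusted p = 0.0532). The chemokine gene Cxcl10 was at 1804 and 751 against 76.3 and 104 (3.49, SE 0.53, adjusted p = 0.00456); its Smc1 arrays lay far above the GFP arrays but differed from each other by over 2-fold, and it was not called without Smc1 replicate 1 (adjusted p = 0.0619) or GFP replicate 1 (0.0576). Ifitm1, a membrane-resident restriction factor that stem cells express at a high level, went the other way, from 16257 and 11351 in GFP to 5838 and 5571 (-1.25, adjusted p = 0.00627), but not without Smc1 replicate 1 (adjusted p = 0.0619) or GFP replicate 1 (0.0659). Ifitm2 was the other lower gene (-1.43), not called without Smc1 replicate 1 (adjusted p = 0.0890), GFP replicate 1 (0.0672) or GFP replicate 2 (0.0646). Higher members numbered 5, 11, 7 and 11 and lower members 0, 3, 0 and 1 when an array was left out. The response element was found in 3 of 11 called higher genes with a promoter and in 4 of 19 not called.

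Of 25 interferon regulators and receptors tested, 4 were called higher and 0 lower in limma (8 and 3 at an unadjusted p below 0.05), beside 9.30% higher over all genes. Irf1, a transcription factor that drives antigen presentation genes, measured 2732 and 2291 on the Smc1 arrays and 824 and 839 on the GFP arrays (1.57, SE 0.22, adjusted p = 0.00340), and missed the limit in 1 of the 4 leave-outs, without Smc1 replicate 1 (adjusted p = 0.0545). The condensin arrays were near the GFP level, at 1122 and 737 (CapH2) and 991 and 891 (Smc2). The interferon gamma receptor chain gene Ifngr2 (1.29), the adaptor gene Myd88 (1.24) and the dim Irf2 (2.63) were the others. Ifngr2 was not called without any 1 of the 4 arrays (adjusted p = 0.0585 to 0.235), Myd88 without any 1 of the 4 arrays (adjusted p = 0.0633 to 0.218), or Irf2 without Smc1 replicate 1 (adjusted p = 0.0757) or GFP replicate 1 (0.0671). The interferon gene Ifnb1 (-0.44), with means below the array medians, the type I receptor genes Ifnar1 (0.68) and Ifnar2 (-0.60), and Irf3 (0.40), Irf9 (-0.48), Jak1 (0.31), Cgas (-0.60) and Mavs (-0.71) were not called.

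Contractile genes and targets of Srf and Yap were the largest group of rises by number. Srf binds the CArG box and, with the Mrtf cofactors, drives actin and smooth muscle genes when actin polymerises, and Yap is the effector that the Hippo kinases restrain. Of 37 tested, 22 were called higher and 0 lower in limma (27 higher and 1 lower at an unadjusted p below 0.05), with a median of 1.19. Actc1, cardiac actin, measured 995 and 921 on the Smc1 arrays and 98.4 and 102 on the GFP arrays, a rise of 3.06 (SE 0.32, adjusted p = 0.00221). Both pairs of replicates were close. Acta1, skeletal actin, was at 2962 and 4824 against 242 and 585 (3.27, SE 0.58, adjusted p = 0.00776), but not called without Smc1 replicate 1 (adjusted p = 0.0567) or GFP replicate 1 (0.0916). Myl9, the regulatory light chain of smooth muscle and non-muscle myosin, was at 2230.2 and 1639.7 against 142 and 273 (3.18, SE 0.42, adjusted p = 0.00310). The tropomyosin gene Tpm2 was at 6889 and 5522 against 1999 and 2186 (1.55, adjusted p = 0.00346), and missed the limit in 1 of the 4 leave-outs, without Smc1 replicate 1 (adjusted p = 0.0555). Lats2, a Hippo kinase and itself a Yap target, was at 1045 and 783 against 62.7 and 131 (3.10, SE 0.39, adjusted p = 0.00278). Its 5 other probe sets, 4 of them dim, ranged from -0.30 to 3.37, and their average with it gave 1.32, so its size is uncertain. Myl9 rose by 2.11 with the Actb ratio as a covariate. Actc1, Lats2, Myl9 and the dim Cnn1 were stable. The count of 22 became 4, 19, 5 and 15 in the 4 fits with an array left out. Actb itself, the cytoplasmic actin, measured 23246 and 24941 against 25394 and 21556 (0.04, adjusted p = 0.835), and Srf (0.83, adjusted p = 0.118) was not called. Vim (-0.07), Cnn3 (-0.15) and Myl6 (-0.06) were not called either.

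CArG boxes in these promoters were looked for by the motif's name with A or T at each of its inner positions, on both strands of the same 250 bases. They were in 5 of 18 called members with a promoter and in 4 of 13 not called, beside 1.62% of all genes in the promoter table and 1.37% of the genes tested. The list was drawn up from known Srf targets, so a share above all genes follows from its choice, and called and uncalled members had similar shares. The called genes with a match are shown as the clearest examples, with the box in capitals, on the gene's strand. The windows are chr8:123894804-123894883 (Acta1, minus strand), chr2:114052878-114052957 (Actc1, minus strand), chr2:156775268-156775347 (Myl9, plus strand), chr10:79988509-79988588 (Cnn2, plus strand) and chr14:20929148-20929227 (Vcl, plus strand).
Acta1: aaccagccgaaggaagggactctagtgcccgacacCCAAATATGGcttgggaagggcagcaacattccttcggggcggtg
Actc1: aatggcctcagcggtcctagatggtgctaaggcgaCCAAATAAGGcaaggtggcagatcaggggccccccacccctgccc
Myl9: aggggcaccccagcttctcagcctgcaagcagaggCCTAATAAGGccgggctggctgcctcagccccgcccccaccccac
Cnn2: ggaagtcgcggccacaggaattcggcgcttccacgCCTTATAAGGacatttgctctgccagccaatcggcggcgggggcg
Vcl: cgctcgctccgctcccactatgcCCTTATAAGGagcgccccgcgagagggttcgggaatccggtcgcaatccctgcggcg
The calponin gene Cnn2 rose by 1.41 (adjusted p = 0.00938) and Vcl, the gene of the adhesion protein vinculin, by 0.89 (adjusted p = 0.0252); both were named here for their promoters, after their values were seen. Cnn2 was not called without Smc1 replicate 1 (adjusted p = 0.102) or GFP replicate 1 (0.0927), nor Vcl without Smc1 replicate 1 (adjusted p = 0.213), GFP replicate 1 (0.184) or GFP replicate 2 (0.0689).

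Adhesion and junction genes shared the direction. Of 31 tested, 16 were called higher and 0 lower in limma (20 higher and 3 lower at an unadjusted p below 0.05), with a median of 0.90. Beside Gja1, Cd24a, a surface glycoprotein gene, was stable, at 7424 and 5427 on the Smc1 arrays and 1230.2 and 1506 on the GFP arrays (2.21, SE 0.29, adjusted p = 0.00310). Cldn6, a tight junction claudin gene, was at 1465 and 1201 against 322 and 393 (1.85, adjusted p = 0.00332), and missed the limit in 1 of the 4 leave-outs, without Smc1 replicate 1 (adjusted p = 0.0507). Desmoplakin, Dsp, which anchors keratins at desmosomes, was at 4515 and 3692 against 1314 and 1619.6 (1.47, adjusted p = 0.0102), but not called without Smc1 replicate 1 (adjusted p = 0.103) or GFP replicate 1 (0.104). The keratin gene Krt19 was among the stable rises, at 5153 and 4039 against 517 and 879.7 (2.73, SE 0.35, adjusted p = 0.00293). E-cadherin, Cdh1 (0.33), Epcam (0.25) and Ctnna1 (-0.02) were not called. The count of 16 was 2, 10, 3 and 6 in the 4 fits with an array left out. With centring on the genes tested, 13 were higher and 3 lower. Of 27 matrix and fibroblast genes 4 were called higher and 1 lower. Igfbp3, a binding protein of insulin-like growth factors, was stable, at 1250.5 and 1042 against 362 and 316 (1.71, SE 0.20, adjusted p = 0.00235). The metalloproteinase inhibitor genes Timp2 (1.14) and Timp1 (-0.94) changed in opposite directions, and neither was stable: Timp2 was not called without Smc1 replicate 1 (adjusted p = 0.126), GFP replicate 1 (0.141) or GFP replicate 2 (0.0506), nor Timp1 without any 1 of the 4 arrays (adjusted p = 0.0771 to 0.154).

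Of 38 core and naive pluripotency genes tested, 20 were called lower and 2 higher, with a median of -0.70, and 17 of the 20 were also lower than in the condensin knockdowns. Since each array measures a whole culture, fewer cells in a given state and less RNA per cell cannot be told apart. Klf4, a naive transcription factor, measured 2134 and 2660.2 on the Smc1 arrays and 5780.4 and 7842 on the GFP arrays (-1.49, SE 0.19, adjusted p = 0.00278). The condensin arrays all lay above the GFP mean for this gene, at 8534 and 7639 (CapH2) and 8977 and 7334 (Smc2). Tfap2c was at 1150.4 and 1251 against 2816 and 4225 (-1.51, SE 0.20, adjusted p = 0.00310). Klf4, Tfap2c, Prdm14, Tcl1 and Pecam1 were stable. Zfp42 (Rex1), a naive marker named here after its value was seen, was at 5081 and 5385 against 8742 and 9929 (-0.83, adjusted p = 0.00883), and was not called without Smc1 replicate 1 (adjusted p = 0.0886) or GFP replicate 2 (0.0601). Among the core factors Nanog was at 8879.8 and 9324 against 15590.0 and 14689.6 (-0.73, adjusted p = 0.00525) and lost its call in 1 of the 4 leave-outs, without Smc1 replicate 1 (adjusted p = 0.0695), Sox2 was at 7896 and 11311 against 15202 and 19892 (-0.88), not called without Smc1 replicate 1 (adjusted p = 0.133) or GFP replicate 2 (0.0912), and Pou5f1 was at 5521 and 9012 against 13641 and 11327 (-0.82), not called without Smc1 replicate 1 (adjusted p = 0.247), GFP replicate 1 (0.213) or GFP replicate 2 (0.0811). The change of Pou5f1 was -0.46 without Smc1 replicate 1. Esrrb was at 877 and 1758 against 3435 and 4019 (-1.57, adjusted p = 0.00772) and was not called without Smc1 replicate 1 (adjusted p = 0.0545), GFP replicate 1 (0.0593) or GFP replicate 2 (0.0610). Lower calls numbered 6, 19, 9 and 8 in the 4 fits with an array left out. The 2 higher genes were Lin28a (1.05), not called without any 1 of the 4 arrays (adjusted p = 0.106 to 0.266), and Trim71 (1.37), not called without Smc1 replicate 1 (adjusted p = 0.0983), Smc1 replicate 2 (0.0677) or GFP replicate 1 (0.142). In contrast, Dppa4 (-0.04), Utf1 (-0.16), Sall4 (-0.25) and Tdgf1 (-0.26) were not called.

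Signals that act on this state changed in part. Among LIF and Stat3 genes, 2 of 14 were lower and 2 higher. The higher ones were Ptpn11 (0.83) and the dim Osmr (1.52), neither of them stable. Averaged over probe sets they rose by 0.36 (limma adjusted p = 0.525) and 0.28 (0.601), without a call. The Stat3 target Socs2 was at 1407 and 1091 against 3114 and 2811 (-1.25, SE 0.22, adjusted p = 0.00731), and was not called without GFP replicate 1 (adjusted p = 0.0782). The LIF receptor gene Lifr (-0.87) was not called without Smc1 replicate 1 (adjusted p = 0.292), GFP replicate 1 (0.159) or GFP replicate 2 (0.191), with a change of -0.44 in the first of these, while Stat3 (0.48) and Socs3 (-0.12) had no call. Of 29 Nodal, activin and BMP genes 7 were higher and 1, the dim Inhbb, lower. Id1, an inhibitor of helix-loop-helix factors induced by BMP, measured 4019 and 3983 on the Smc1 arrays and 832 and 902 on the GFP arrays (2.19, SE 0.26, adjusted p = 0.00235). Id2 was at 2579 and 2805 against 684 and 1035 (1.66, SE 0.24, adjusted p = 0.00354), and both were stable. The Nodal antagonist gene Lefty2 was at 4118 and 2871 against 721 and 964 (2.02, adjusted p = 0.00397), not called without Smc1 replicate 1 (adjusted p = 0.0578) or GFP replicate 1 (0.0554), and the BMP receptor gene Bmpr2 rose by 1.08 (adjusted p = 0.00590), not called without Smc1 replicate 1 (adjusted p = 0.0757) or GFP replicate 1 (0.0673). Nodal itself (0.70), Bmp4 (1.13) and Smad7 (0.04) were not called. Higher Nodal and BMP genes numbered 2, 6, 2 and 5 in the 4 fits with an array left out.

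In the FGF and ERK feedback list 7 of 18 genes were higher and 1 lower. The lower one was the ligand gene Fgf4, at 746 and 2939 on the Smc1 arrays, which lie far apart, and 8279 and 7191 on the GFP arrays (-2.37, SE 0.50, adjusted p = 0.0147); it was not called without Smc1 replicate 1 (adjusted p = 0.0686), GFP replicate 1 (0.122) or GFP replicate 2 (0.0731). Its change was -1.39 without Smc1 replicate 1. Il17rd, a feedback inhibitor of FGF receptors, was the stable rise, at 2298 and 1664 against 557 and 596 (1.74, SE 0.21, adjusted p = 0.00241). The ERK phosphatase family gene Dusp14 (1.62) and the receptor tyrosine kinase inhibitor gene Spry2 (1.47) rose with all arrays in the fit, but not called were Dusp14 without Smc1 replicate 1 (adjusted p = 0.102), GFP replicate 1 (0.0927) or GFP replicate 2 (0.0570) and Spry2 without any 1 of the 4 arrays (adjusted p = 0.0508 to 0.187). The higher genes of this list numbered 1, 3, 1 and 1 in the 4 leave-outs, in the order used above. In the Wnt list 2 of 12 were higher: Tcf7l1, the repressor that Wnt signals relieve (1.21, adjusted p = 0.0240), not called without Smc1 replicate 1 (adjusted p = 0.0571), Smc1 replicate 2 (0.130) or GFP replicate 1 (0.200), and the dim target Sp5 (3.41, adjusted p = 0.00884), not called without Smc1 replicate 1 (adjusted p = 0.0868), GFP replicate 1 (0.0572) or GFP replicate 2 (0.0670). Axin2 (0.79) and Ccnd1 (-0.45) were not called.

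Genes of the primed epiblast rose in 7 of 21 cases and fell in 0 in limma (11 and 1 at an unadjusted p below 0.05), with a median of 1.08. Car4, a membrane carbonic anhydrase gene, was the stable one, at 3575 and 2509 against 326 and 477 in GFP (2.87, SE 0.39, adjusted p = 0.00310). The neural and stem cell factor Sox4 (1.29, not called without Smc1 replicate 1 (adjusted p = 0.0692) or GFP replicate 1 (0.0585)) and Sox3 (1.59, adjusted p = 0.0154, not called without any 1 of the 4 arrays (adjusted p = 0.0649 to 0.102)) were less firm. Otx2 (0.55), Fgf15 (-0.53) and Zic2 (-0.30) were not called. Dnmt3b, the de novo DNA methyltransferase gene of this state, measured 8532 and 8935 against 1849.6 and 2511 (2.01, adjusted p = 0.0344), but the condensin arrays spread widely and reached that level too, at 9522 and 4871 (CapH2) and 12177 and 2928 (Smc2), and it was not called without any 1 of the 4 arrays (adjusted p = 0.104 to 0.211). The primed list had 1, 4, 2 and 4 calls in the same 4 leave-outs. Tet2, which oxidises 5-methylcytosine, was lower (-1.07, adjusted p = 0.0158), not called without Smc1 replicate 1 (adjusted p = 0.142), GFP replicate 1 (0.0772) or GFP replicate 2 (0.107), and Dnmt1 (-0.29) and Dnmt3a (0.62) were not called.

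Genes of later lineages went both ways. The neural list had 5 higher and 4 lower of 18. Olig2, an oligodendrocyte and motor neuron factor, fell from 545 and 658 in GFP to 75.5 and 181 (-2.20, SE 0.33, adjusted p = 0.00434), and Stmn2, a microtubule regulator, from 13486 and 12488 to 7388 and 5829 (-0.98, SE 0.14, adjusted p = 0.00395). Both were stable, whereas the rises of Sox11 (1.72), not called without Smc1 replicate 1 (adjusted p = 0.0766) or GFP replicate 1 (0.0585), and of the retinoic acid binding protein gene Crabp2 (1.60), not called without Smc1 replicate 1 (adjusted p = 0.0843), GFP replicate 1 (0.0531) or GFP replicate 2 (0.0617), were not. In the trophectoderm list, 7 of 20 were higher and 2 lower. Its stable genes were Krt19, higher (2.73), and Tfap2c, lower (-1.51), both given above. Plac1, a placental gene, was at 515 and 337 against 75.8 and 111 (2.00, limma adjusted p = 0.0165). It was not stable, and its change was 1.71 without Smc1 replicate 1. The collagen chaperone gene Serpinh1 (1.28, adjusted p = 0.00390), not called without Smc1 replicate 1 (adjusted p = 0.0574) or GFP replicate 1 (0.0531), and the endocytic adaptor gene Dab2 (1.79), not called without Smc1 replicate 1 (adjusted p = 0.104) or GFP replicate 1 (0.105), were among the 3 higher and 2 lower of 19 primitive endoderm genes. The 2 lower primitive endoderm genes were Apoe (-1.06) and Lamc1 (-0.98), and neither was stable. Averaged over probe sets, Dab2 rose by 0.67 (limma adjusted p = 0.172) and Lamc1 changed by -0.56 (0.127), without a call. Gata6 (-0.51), Gata4 (0.41) and Sox17 (0.67), which define primitive endoderm, were not called. Of 6 mesoderm and gastrulation genes 0 were called in limma (1 higher and 1 lower at an unadjusted p below 0.05). In the germline list 1 of 22 was higher and 3 lower, beside 9.30% and 4.69% over all genes tested: Slc25a31 (1.36), Hormad1 (-1.78), Tex14 (-1.36) and Rnf17 (-1.12). None of the 4 was stable. Slc25a31 was not called without Smc1 replicate 2 (adjusted p = 0.0671), GFP replicate 1 (0.120) or GFP replicate 2 (0.0631), nor Hormad1 without Smc1 replicate 1 (adjusted p = 0.122), GFP replicate 1 (0.0871) or GFP replicate 2 (0.0874). Tex14 lost its call without Smc1 replicate 1 (adjusted p = 0.288), GFP replicate 1 (0.159) or GFP replicate 2 (0.180), and Rnf17 without Smc1 replicate 1 (adjusted p = 0.124), GFP replicate 1 (0.121) or GFP replicate 2 (0.0567). Tex14 was at -0.79 without Smc1 replicate 1. In the two-cell-like list 3 of 11 were higher and 1 lower, and none was stable (0, 5, 2 and 0 higher in the 4 leave-outs).

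Among 36 imprinted genes 10 were higher and 1 lower. The lower gene was Peg3 (-0.96), which was not called without Smc1 replicate 1 (adjusted p = 0.103), GFP replicate 1 (0.0626) or GFP replicate 2 (0.0734). The 3 noncoding transcripts tested from the maternally expressed side of the Dlk1-Dio3 cluster were all higher. Meg3, its long noncoding RNA, measured 12504 and 12315 on the Smc1 arrays and 3953 and 2814 on the GFP arrays (1.89, SE 0.18, adjusted p = 0.00221), with the condensin arrays between, at 6373 and 5355 (CapH2) and 6103 and 5196 (Smc2). Rian was at 6969 and 5781 against 1939 and 2019 (1.67, SE 0.22, adjusted p = 0.00308), and its 3 other probe sets gave 1.07 to 1.95. Mirg, of the same cluster, rose by 2.25 (adjusted p = 0.00974, named after its value was seen), and was not called without Smc1 replicate 1 (adjusted p = 0.0970) or GFP replicate 1 (0.103). The 10 other Meg3 probe sets differed among themselves, with changes from -0.40 to 2.50. Averaged over probe sets, Meg3 rose by 1.17 and Ndn by 0.86. Ndn, the paternally expressed necdin gene of another cluster, was at 2477 and 1882 against 841 and 748 (1.43, SE 0.19, adjusted p = 0.00310), and Gnas rose by 0.87 (adjusted p = 0.00397), but was not called without Smc1 replicate 1 (adjusted p = 0.0569) or when averaged over its probe sets (0.34, adjusted p = 0.398). Meg3, Rian and Ndn were stable. Igf2r (0.11), Kcnq1ot1 (0.11) and Grb10 (0.29) were not called. The 10 higher calls became 3, 8, 4 and 7 in the 4 fits with an array left out.

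Of 28 polycomb genes 5 were higher and 3 lower, beside 9.30% and 4.69% over all genes tested. Rbbp7, a histone chaperone of several repressor complexes, was the stable one, at 25256 and 23896 against 13220.1 and 12945 in GFP (0.91, SE 0.10, adjusted p = 0.00235), with 19414 and 19418 on the CapH2 and 21361 and 19324 on the Smc2 arrays. Yaf2 (1.30, not called without Smc1 replicate 1 (adjusted p = 0.0860) or GFP replicate 2 (0.0623)), Phc2 (1.42, not called without Smc1 replicate 1 (adjusted p = 0.104) or GFP replicate 1 (0.0998)) and Bmi1 (1.05, not called without Smc1 replicate 1 (adjusted p = 0.103), GFP replicate 1 (0.0836) or GFP replicate 2 (0.0645)), members of the ubiquitin ligase arm, rose with all arrays in the fit, while Suz12 (-0.76) of the methyltransferase arm was lower, but not called without Smc1 replicate 1 (adjusted p = 0.204), GFP replicate 1 (0.145) or GFP replicate 2 (0.0959), and Ezh2 (-0.32) and Eed (-0.23) were not called. Of 41 genes of Mediator and of polymerase pausing 0 were called in limma (2 higher and 2 lower at an unadjusted p below 0.05). In the splicing list 4 of 29 rose. Hnrnpll measured 5333 and 5142 on the Smc1 arrays and 1450.4 and 1587 on the GFP arrays (1.78, SE 0.16, adjusted p = 0.00153). It was as high on the condensin arrays, at 4861 and 5578 (CapH2) and 5654 and 4742 (Smc2), so only the GFP arrays stand apart. Esrp1, an epithelial splicing factor, was at 1461 and 1184 against 493 and 288 (1.76, adjusted p = 0.00768), not called without Smc1 replicate 1 (adjusted p = 0.0832) or GFP replicate 2 (0.0600), and Celf2 rose by 1.73 (adjusted p = 0.00434), not called without Smc1 replicate 1 (adjusted p = 0.0571) or GFP replicate 1 (0.0572). Srsf2 rose by 0.86 and was not called without any 1 of the 4 arrays. Averaged over probe sets, Srsf2 rose by 0.34 (limma adjusted p = 0.395) and Celf2 by 0.85 (0.0541), without a call.

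Genes of S phase were modestly lower. Of 44 replication genes 10 were called lower and 0 higher in limma (23 and 0 at an unadjusted p below 0.05), beside 4.69% lower over all genes tested. A change below 0 was found in 43 of the 44, with a median of -0.38. This lean was not particular to them, as 35 of 37 ribosomal protein and 28 of 34 oxidative phosphorylation genes also lay below 0. Among constitutive proteasome genes it was 14 of 26, and among Mediator and pausing genes 15 of 41. Rrm2, a subunit of ribonucleotide reductase, measured 10486 and 11644 on the Smc1 arrays and 17816 and 16588 on the GFP arrays (-0.64, SE 0.11, adjusted p = 0.00731). Gins1, of the replicative helicase, was at 2553 and 2371 against 4304 and 3994 (-0.75, SE 0.15, adjusted p = 0.0107). The primase gene Prim1 (-0.72) and the thymidine kinase gene Tk1 (-0.73) were lower too, but Prim1 was not called without Smc1 replicate 1 (adjusted p = 0.0970), Smc1 replicate 2 (0.0695) or GFP replicate 1 (0.127), nor Tk1 without Smc1 replicate 1 (adjusted p = 0.154), GFP replicate 1 (0.140) or GFP replicate 2 (0.0751). The calls of these small changes were not firm, as none of the replication genes was stable. Sizes moved less: in the 4 fits with an array left out Rrm2 ranged from -0.71 to -0.56 and Gins1 from -0.80 to -0.70. Alternatives moved the count of 10 lower replication genes to 19 (centring on the genes tested) and 2 (Actb ratio as a covariate). Repair and checkpoint genes were similar, with 5 of 36 lower and 0 higher in limma (12 and 1 at an unadjusted p below 0.05). The checkpoint kinase gene Chek1 was at 1604 and 1509 against 3212 and 2899 (-0.96, SE 0.17, adjusted p = 0.00786), not called without Smc1 replicate 1 (adjusted p = 0.0692) or GFP replicate 1 (0.0853), and Fancd2 (-1.07), Brca1 (-0.97) and Msh6 (-0.62) were lower as well. Fancd2 was not called without Smc1 replicate 1 (adjusted p = 0.104), GFP replicate 1 (0.106) or GFP replicate 2 (0.0536), Brca1 without Smc1 replicate 1 (adjusted p = 0.139), GFP replicate 1 (0.127) or GFP replicate 2 (0.0645), or Msh6 without Smc1 replicate 1 (adjusted p = 0.224), GFP replicate 1 (0.154) or GFP replicate 2 (0.0865). The change of Msh6 was -0.38 without Smc1 replicate 1. Of 39 genes of G2 and mitosis 1, Dlgap5 (-0.80, adjusted p = 0.0371), was lower, but not called without any 1 of the 4 arrays (adjusted p = 0.0526 to 0.254).

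Among p53 targets 7 of 30 were higher and 1 lower. Plk2 measured 2263 and 2714 against 723 and 948 in GFP (1.56, adjusted p = 0.0129) and the antiproliferative gene Btg2 2219 and 2134 against 955 and 853 (1.25, adjusted p = 0.0203). Ccng1, cyclin G1, changed little but evenly, at 15415 and 15605 against 10227 and 10214 (0.60, SE 0.13, adjusted p = 0.0157). The lower gene was Rrm2b (-1.54, adjusted p = 0.0159). Plk2 was not called without any 1 of the 4 arrays (adjusted p = 0.0523 to 0.125), Btg2 without any 1 of the 4 arrays (adjusted p = 0.0692 to 0.137), Ccng1 without any 1 of the 4 arrays (adjusted p = 0.0654 to 0.118), or Rrm2b without any 1 of the 4 arrays (adjusted p = 0.0528 to 0.127), and the count of higher p53 targets became 0, 1, 0 and 0 in limma. Cdkn1a, the cell cycle inhibitor p21, was at 5239 and 4976 against 2655 and 3487 (0.74, adjusted p = 0.0510), just outside the limit, and of 10 Cdk inhibitor genes 0 were called in limma (3 higher and 1 lower at an unadjusted p below 0.05). Of 28 apoptosis genes 4 were higher and 0 lower in limma (9 and 2 at an unadjusted p below 0.05): Casp8 (1.5), not called without Smc1 replicate 1 (adjusted p = 0.154) or GFP replicate 1 (0.134), Apaf1 (0.79), not called without any 1 of the 4 arrays (adjusted p = 0.0745 to 0.188), and the dim Bcl2 (2.16), not called without Smc1 replicate 1 (adjusted p = 0.0901), GFP replicate 1 (0.0683) or GFP replicate 2 (0.0527), and Mlkl (2.75), not called without any 1 of the 4 arrays (adjusted p = 0.0772 to 0.197). The 4 other Bcl2 probe sets, all dim, changed by -0.77 to 0.09, so its rise rests on 1 probe set.

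Of 33 stress genes 5 were lower and 1 higher. Beside Nupr1, the amino acid synthesis genes Asns (8751 and 6842 against 12931 and 12031, -0.69, adjusted p = 0.0174) and Psat1 (2958 and 3257 against 6714 and 5563, -0.97, adjusted p = 0.0186), both targets of Atf4, were lower. Asns was not called without any 1 of the 4 arrays (adjusted p = 0.0569 to 0.122), nor Psat1 without any 1 of the 4 arrays (adjusted p = 0.0565 to 0.151). The higher gene Atf3 (1.26) was not called without Smc1 replicate 1 (adjusted p = 0.226), GFP replicate 1 (0.151) or GFP replicate 2 (0.110). Atf4 (-0.64), Hspa5 (-0.03) and Xbp1 (-0.26) were not called. In the oxidative stress list 3 of 22 were higher and 4 lower. Mgst1, a membrane glutathione transferase gene, was stable, at 1008 and 802 against 311 and 213 (1.74, SE 0.23, adjusted p = 0.00310), and rose by 0.95 when averaged over its probe sets. The mitochondrial superoxide dismutase gene Sod2 was at 3685 and 4215 against 7598 and 6855 (-0.87, SE 0.14, adjusted p = 0.00638), not called without Smc1 replicate 1 (adjusted p = 0.0795) or GFP replicate 1 (0.0640). In the glycolysis list 2 of 30 were higher and 1 lower, shares below the 9.30% and 4.69% over all genes tested. They were Slc2a1, the glucose transporter gene (0.47), Pdk1 (0.57) and the angiogenic factor gene Vegfa (-1.69). Averaged over its probe sets, Pdk1 rose by 0.12 without a call (limma adjusted p = 0.743). Slc2a1 was not called without Smc1 replicate 1 (adjusted p = 0.165), Smc1 replicate 2 (0.0726) or GFP replicate 1 (0.120), Pdk1 without Smc1 replicate 1 (adjusted p = 0.110), Smc1 replicate 2 (0.113) or GFP replicate 1 (0.148), or Vegfa without Smc1 replicate 1 (adjusted p = 0.116), GFP replicate 1 (0.104) or GFP replicate 2 (0.0643). Rps25 (-1.11) and Rpl12 (-1.02) were the lower 2 of 37 ribosomal protein genes, a share near the 4.69% over all genes tested. Rps25 was not called without Smc1 replicate 1 (adjusted p = 0.0832), Smc1 replicate 2 (0.0517) or GFP replicate 1 (0.114), nor Rpl12 without any 1 of the 4 arrays (adjusted p = 0.0525 to 0.232). In this list 0 were higher in limma (0 higher and 7 lower at an unadjusted p below 0.05). The 9 lists with 218 tested genes, among them Myc targets, cholesterol synthesis, oxidative phosphorylation, lysosome and histone genes, had 0 called genes in limma (10 higher and 27 lower at an unadjusted p below 0.05).

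Set against the mean of the CapH2 and Smc2 knockdowns, a contrast that shares the Smc1 arrays but not the GFP arrays, the Smc1 knockdown had 961 called genes (7.75%), 685 higher (5.53%) and 276 lower (2.23%). Of the 1458 bright genes called against GFP, 430 higher and 182 lower were called in the same direction here (42.0%). Both contrasts hold the Smc1 arrays, so this overlap is no independent support. The contrast had 9 calls in limma without Smc1 replicate 1 (1692 at an unadjusted p below 0.05) and 384 without Smc1 replicate 2. Actc1 was higher by 3.31 than in the condensin knockdowns (adjusted p = 0.00115), Cxcl10 by 3.35 (0.00542), Gbp2 by 3.10 (0.00327), Cryab by 2.94 (0.00290) and Krt19 by 2.82 (0.00290), each close to its change against GFP. Nupr1 differed by -3.19 (adjusted p = 0.00290), Myo1f by -2.46 (0.00290), Olig2 by -2.07 (0.00548) and Klf4 by -1.76 (0.00210). Others were closer to the condensin arrays than to GFP. Hnrnpll differed by 0.01 (adjusted p = 0.970), Dnmt3b by 0.45 (0.608), Rbbp7 by 0.31 (0.0658), Saa3 by -0.84 (0.101) and Mgst1 by 0.59 (0.110), without a call. By list, 19 of the 22 contractile genes, all 7 GTPase genes and 17 of the 20 lower pluripotency genes were called in this contrast too.

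Other cells in the culture were looked for by their markers. The summed intensity of 15 feeder fibroblast markers was 2092 and 1913 on the Smc1 arrays and 1450 and 1406 on the GFP arrays, with 6 markers above the array median on each Smc1 array and 5 on each GFP array. Of the 8 tested, 5 had a change above 0 and 3 below 0. Col3a1 was called higher (408 and 189.9 against 55.9 and 68.5, 1.92, limma adjusted p = 0.0153). Its call was not stable, and its change was 1.40 without Smc1 replicate 1. Postn went the other way without a call, at 19.5 and 26.1 against 68.1 and 73.1. Dcn, Lum, Ogn, Fap, Prrx1 and Twist2, which were not tested, lay below the medians on all 4 arrays. Summed over 10 embryonic stem cell markers the Smc1 arrays gave 95282 and 111066 and the GFP arrays 142612 and 139952, and all 10 lay above the median on every array. Of 5 endothelial and 2 blood markers tested 0 were called in limma (2 higher and 1 lower, and 0 and 0, at an unadjusted p below 0.05). The part of other cells in the rises of contractile, matrix and interferon genes was not tested.

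**Figure D4:**
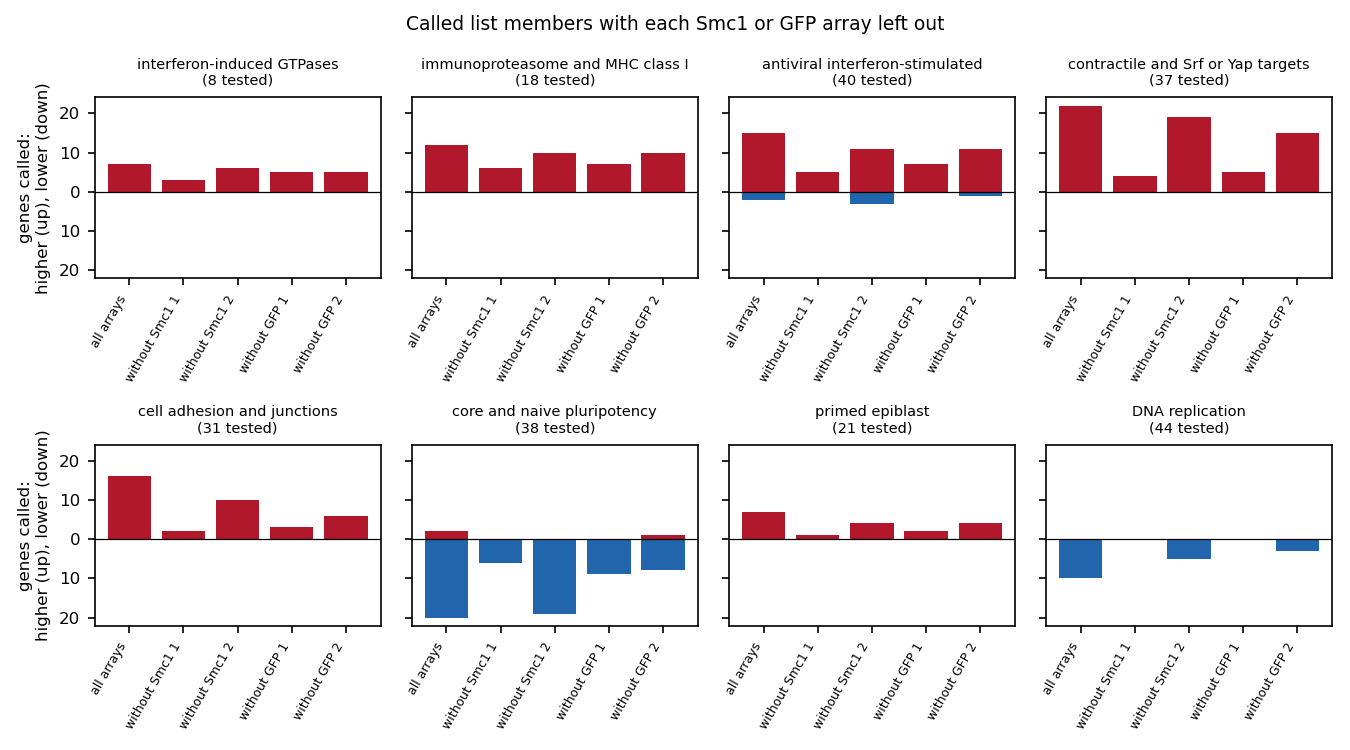
Number of members called higher (red, up) and lower (blue, down) in 8 lists with all arrays and without each Smc1 or GFP array in turn. In each list the main direction has its lowest count without Smc1 replicate 1 (for replication genes also without GFP replicate 1), which for the contractile genes is 4 in place of 22 and for the immunoproteasome list 6 in place of 12.

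The Actb ratio differed between the groups, and its part in these counts was not tested beyond the fit that holds it as a covariate. In that fit higher calls numbered 6 among the GTPases, 10 in the immunoproteasome list, 9 among antiviral genes, 10 among contractile genes, 8 among adhesion genes and 4 among primed genes. Lower calls numbered 10 among pluripotency genes. Sizes moved as well. List medians in that fit were 2.63 for GTPases, 1.43 for immunoproteasome, 0.93 for contractile, 0.79 for adhesion and -0.59 for pluripotency genes. The primed median was 0.08 in place of 1.08, and the Wnt median 0.08 in place of 0.81. Two-cell-like genes kept a median of 1.39 but had 0 higher calls. Dnmt3b changed by 0.61 (limma adjusted p = 0.292) and Pou5f1 by -0.46 (0.284), without a call.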

How the data were processed

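The deposited values are linear intensities, 1 for each of 44903 probe sets and array. Details of how probes became these values were not given in the sources used here, but the mean of each array, leaving out 2% of the values at each end, lay between 488.9 and 490.0, so arrays had been scaled to a common level. Values were used as deposited, as log2(value + 16). Of the probe sets, 34771 had 1 gene symbol, and each of their 18140 genes was represented by its brightest probe set. The test took the 12394 genes brighter than the median of the same array in 2 or more of the 8 arrays. All 8 arrays in 4 groups were fitted with limma 3.58.1 in R 4.3.3 (eBayes with an intensity trend, Benjamini-Hochberg adjustment). Figures were drawn in Python 3.11.15 with matplotlib 3.10.9. With 2 arrays a group, the number of arrays limits precision. On simulated data over 12394 genes, with 50 genes changed at each size, the fit recovered 2% of log2 changes of 0.5, 44% of changes of 1 and 96% of changes of 2. The simulation changed far fewer genes than were called here and had independent noise without a shift of any array. Its rates are therefore only a rough guide to these data.

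Members and gene lists were chosen with earlier results of these data known. The genes named are Smc1a and the cohesin lists, the 15 largest rises and falls, the 5 brightest called genes in each direction with at least a 2-fold change, and up to 4 called members of each list by adjusted p, bright ones first. Further members were named after their values were seen. Alternatives were other normalizations, pseudocounts, filters, probe set summaries, covariates and arrays left out.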

Additional observations from a re-analysis of the deposited data

How the results depend on the processing

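Across 20 alternatives, the 152 named and called genes other than Smc1a gave 3023 values, of which 2528 kept direction and call, 495 kept the direction only and 0 turned. For many alternatives this 0 was fixed in advance and adds no support. Those that changed only the spread, the filter or the condensin arrays left the log2 changes as they were. Nor can a gene whose Smc1 and GFP arrays do not overlap turn when 1 of these arrays is left out. In the 4 fits without 1 Smc1 or GFP array 304 of 608 lost the call, and in the others 191 of 2415. The change of Smc1a ranged from -3.07 (centring on the genes tested) to -2.36 (mean over probe sets). Among the 153 named and called genes, the size of the log2 change moved by over 1.5 times in 43 with the Actb ratio as a covariate, 27 with the mean over probe sets, 6 without Smc1 replicate 1, 5 with pseudocount 64, 2 with pseudocount 1, 1 without GFP replicate 1 and 1 with quantile normalization. Genes called against GFP numbered 1734 in all and 1458 among bright genes. The Smc1 and GFP arrays alone gave 2701 and 2325, and the Actb ratio as a covariate gave 588 and 513. The mean over probe sets gave 936 among bright genes. Leaving out 1 array gave 138 to 2190 in all and 113 to 1869 among bright genes, lowest without Smc1 replicate 1 and highest without a Smc2 replicate. Against the condensin knockdowns the 961 became 594 with no filter on dim genes and 1650 with the Actb ratio, and 9 to 1163 when 1 array was left out (467 without CapH2 replicate 2). Why these counts moved was not tested. A replicate block gave 1366 genes in all, 1148 bright genes and 676 against condensin. Same-numbered arrays deviated together only weakly (r = 0.067 over all tested genes, 0.109 over bright genes), and with 2 pairs the numbers are not shown to pair the arrays. Depth here means signal over background: 276 of the called genes had a group mean at or below the highest array median, and their folds are not firm.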
